A study of Mus musculus with 6 samples.

Results

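Costimulatory and activation surface molecules are the proteins through which a B cell engages T cells and shows that it has met antigen. The genes described are Cd80, Cd86, Icosl, Cd274, Cd40, Cd83, Cd69, Cd44, Slamf7 and Cd48, chosen by symbol. All 10 of these genes were among the 24346 gene symbols measured. The cells were follicular (Fo) B cells of the spleen, mature cells that recirculate between follicles. They came from mice aged 8 weeks and were sorted for B220 and high CD23, without CD93 and with low CD21. In the G9gl group, mice were homozygous for the G9gl heavy and light chain genes, which restore the germline precursor of a lupus antibody against double-stranded DNA. The control group, called WT here, was made up of B6 control mice without the knock-in. Each group had 3 libraries, and the comparison was made to learn about anergy, a state in which self-reactive B cells persist but respond weakly. Whether replicate libraries came from different mice is not given in the labels, so p-values measure the spread between these libraries, which may be technical.

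Full T cell help needs an antigen signal together with a costimulatory one. CD80 and CD86 on the B cell bind CD28 on the T cell, ICOS ligand binds ICOS, and PD-L1, the product of Cd274, binds the inhibitory receptor PD-1. CD40 works in the other direction and receives CD40 ligand from the T cell, which turns on NF-kB and raises many of the same surface molecules. Resting follicular B cells carry CD40 and ICOS ligand and little CD80, and antigen, CD40 or Toll-like receptor signals raise CD69, CD83, CD86 and CD80.

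Expression was given as FPKM, which scales fragments to transcript length and to all mapped fragments. Of the 10 genes, 9 reached at least 1 FPKM in at least 3 libraries and were tested with limma on log2(FPKM + 1), as were 10122 genes in all. Cd83 and Cd48 rose in G9gl, Cd86 and Cd44 fell, and Icosl, Cd274, Cd40, Cd69 and Slamf7 did not pass at a Benjamini-Hochberg adjusted p under 0.05. That is 4 of 9 genes called, against 23.4% of all tested genes. In one direction, 2 were higher against 11.8% of all tested genes, and 2 were lower against 11.6%. The median log2 fold change of the 9 genes was -0.018, against -0.0022 over all tested genes. The median size of the change without its sign was 0.209, against 0.159.

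**Figure D1:**
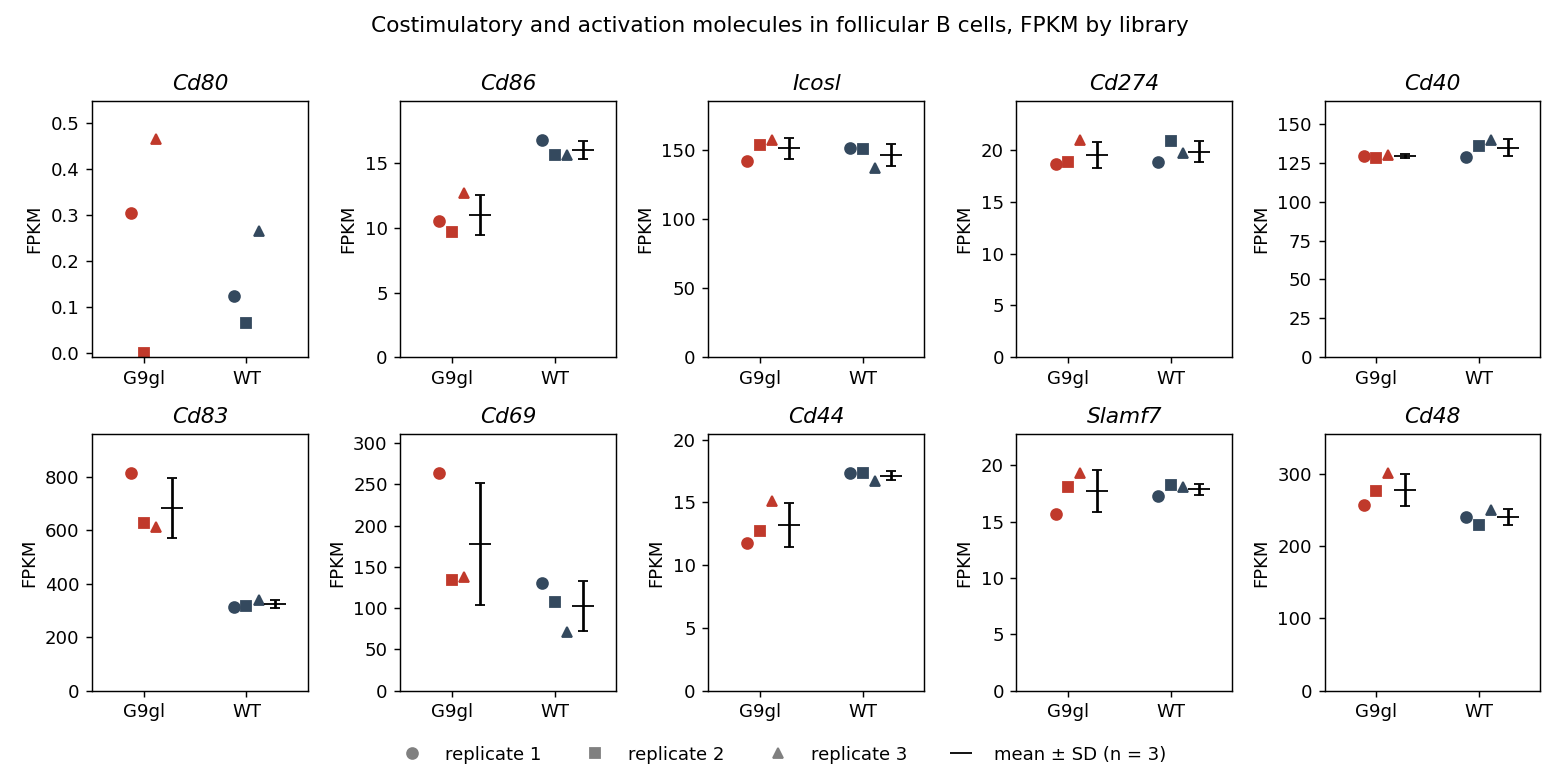
FPKM of the 10 genes in each library, with G9gl libraries in red on the left and WT libraries in blue on the right of each panel. Bars give the mean ± SD of 3 libraries, except for Cd80, which was listed at 0 in G9gl replicate 2. Cd83 was at 613 to 813 FPKM in the G9gl libraries and at 313 to 340 FPKM in the WT libraries, while Cd86 lay lower in G9gl.

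The 10 genes spanned several orders of magnitude in FPKM. In G9gl the mean level was highest for Cd83, at 684 FPKM, followed by Cd48, Cd69, Icosl and Cd40. Of these neighbours, the libraries of Cd48 and Cd69 and those of Cd69 and Icosl overlapped in G9gl. In WT the order was Cd83, at 324 FPKM, then Cd48, Icosl, Cd40 and Cd69, with overlap between Icosl and Cd40 and between Cd40 and Cd69. Cd274, Slamf7, Cd44 and Cd86 followed in that order in both genotypes, with G9gl means of 19.5, 17.7, 13.2 and 11.0 FPKM and WT means of 19.8, 17.9, 17.1 and 16.0 FPKM. In WT the ranges of Slamf7, Cd44 and Cd86 overlapped from one to the next, and in G9gl so did those of Cd274 and Slamf7 and those of Cd44 and Cd86. Cd80 came last in both. By its mean over all 6 libraries Cd83 stood at percentile 98.4 of the tested genes and Cd86 at percentile 44.8.

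Cd86 (chromosome 16, 36603869 to 36666081, GRCm38) encodes the B7 ligand that activated B cells raise first. It had 10.5, 9.72 and 12.7 FPKM in the G9gl libraries, against 16.8, 15.7 and 15.6 FPKM in the WT libraries. All G9gl libraries were below all WT libraries. The mean was 11.0 ± 1.55 FPKM in G9gl and 16.0 ± 0.687 FPKM in WT (SD, n = 3 each). The log2 fold change was -0.51 ± 0.10 (SE), with a limma adjusted p of 0.0063. Its call held in all 15 other settings, with log2 fold changes from -0.66 to -0.44.

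Cd80 (chromosome 16, 38455561 to 38496335), which encodes the other B7 ligand of CD28, was close to the detection limit in both genotypes. It had 0.303 and 0.465 FPKM in G9gl replicates 1 and 3 and was listed at 0 in G9gl replicate 2. The WT libraries had 0.123, 0.0636 and 0.266 FPKM. The groups overlapped. In a transcript of 2 kb these values would rest on an estimated 6.2, 0 and 8.7 fragments in G9gl and 2.5, 1.2 and 5 fragments in WT. The longest annotated Cd80 transcript has 3173 bases, for which the numbers above 0 would be higher. An exact permutation test of the FPKM values gave a two-sided p of 0.6, where 3 libraries against 3 cannot go below 0.1. A difference in Cd80 was not detectable at this depth.

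Icosl (chromosome 10, 78069302 to 78083913), the ligand gene for ICOS on follicular helper T cells, was among the abundant genes. It had 142, 153 and 157 FPKM in G9gl and 151, 150.1 and 137 FPKM in WT, and the groups overlapped. Its fold change on the FPKM + 1 scale was 1.03, with a 95% confidence interval of 0.938 to 1.14 (limma adjusted p 0.63). Cd274 (chromosome 19, 29367455 to 29388095), the PD-L1 gene, had 18.6, 18.9 and 20.98 FPKM in G9gl and 18.8, 20.8 and 19.7 FPKM in WT. These libraries overlapped too, and the fold change was 0.985 with an interval of 0.871 to 1.11 (limma adjusted p 0.87). Changes of Icosl or Cd274 beyond these intervals were not found, while smaller ones could not be seen with 3 libraries per group.

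Cd40 (chromosome 2, 165055627 to 165072948) encodes the receptor through which T cells license B cells. It had 129.6, 128.0 and 130.2 FPKM in G9gl, values close to each other. The WT libraries had 129, 136 and 139.8 FPKM, and the groups overlapped at the lowest WT library. The fold change was 0.960, with a 95% confidence interval of 0.884 to 1.04 (limma adjusted p 0.46). Rescaled to TPM, that is to a fixed total of the measured genes, Cd40 passed as lower, with a log2 fold change of -0.19 (limma adjusted p 0.025). That rescaling moved the median of all tested genes to -0.123, so Cd40 was lower by 0.07 relative to it.

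**Figure D2:**
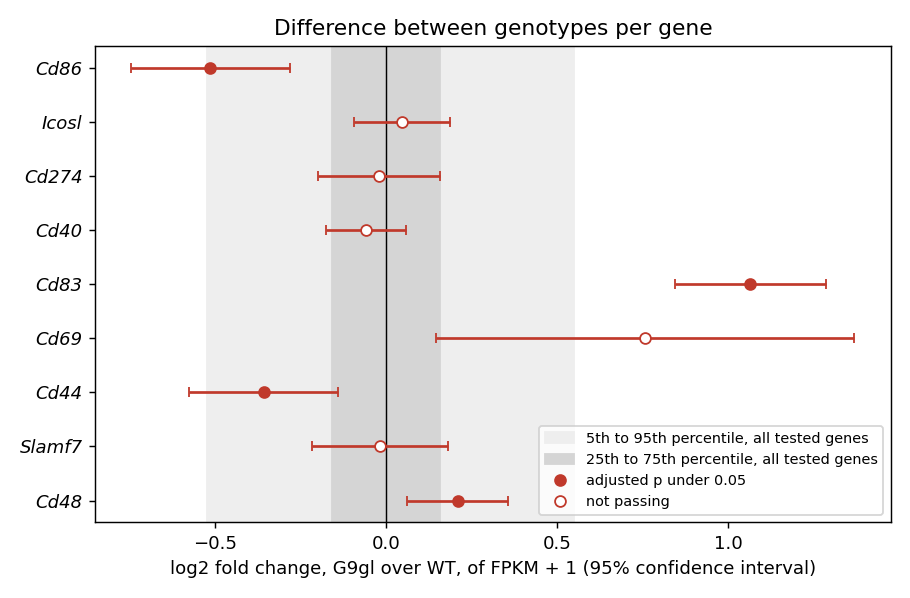
The log2 fold change of the 9 tested genes, G9gl over WT, with 95% confidence intervals from the limma fit. Grey bands give the spread of all tested genes, whose 5th and 95th percentiles were -0.525 and 0.549. Cd83 and Cd69 lay beyond the upper band, though Cd69 did not pass. Cd86 lay at the lower edge, and the intervals of Icosl, Cd274, Cd40 and Slamf7 crossed 0.

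Cd83 (chromosome 13, 43784775 to 43803132) encodes a surface glycoprotein of activated B cells and dendritic cells that stabilises MHC class II and CD86 on the membrane by opposing the ubiquitin ligase MARCH1. It had 813, 626 and 613 FPKM in G9gl, against 313, 317 and 340 FPKM in WT. The lowest G9gl library was well above the highest WT library. The mean was 684 ± 112 FPKM in G9gl and 324 ± 14.7 FPKM in WT (SD, n = 3 each), a log2 fold change of 1.07 ± 0.099 (SE) with a limma adjusted p of 9.4e-05. Without G9gl replicate 1, the highest library, limma gave a log2 fold change of 0.94 (adjusted p 5.7e-06). Within a library, Cd83 exceeded Cd86 by 77.4, 64.4 and 48.2 times in G9gl and by 18.6, 20.2 and 21.8 times in WT. March1, the ligase gene, fell to 32.0 ± 2.003 FPKM in G9gl, against 38.6 ± 2.86 FPKM in WT (limma adjusted p 0.039). A link of March1 to the values of Cd83 or Cd86 was not tested.

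Cd69 (chromosome 6, 129267325 to 129275436) encodes an early activation antigen that binds the S1P receptor S1PR1 and holds lymphocytes in tissue. It had 264, 134 and 137 FPKM in G9gl, against 131, 107 and 70.7 FPKM in WT. The groups did not overlap, but G9gl replicates 2 and 3 were only just above WT replicate 1. The libraries did not overlap for 5 of the 9 tested genes, against 40.8% of all tested genes, with 3 higher in G9gl, against 20.3%, and 2 lower, against 20.5%. The log2 fold change was 0.76 ± 0.27 (SE), with a 95% confidence interval of 0.15 to 1.37 and a limma adjusted p of 0.074. Without G9gl replicate 1 it was 0.44 (adjusted p 0.14). S1pr1 itself did not pass, with 225 ± 3.51 FPKM in G9gl and 250.2 ± 10.3 FPKM in WT (limma adjusted p 0.061).

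The libraries that were extreme for Cd69 were also extreme for immediate-early and stress genes, which a cell raises within minutes of a stimulus or of handling. Tested genes were searched for the pattern most like Cd69 over the 6 libraries. Predicted genes, small RNA genes and genes with only a clone name were left out. The nearest were Ppp1r15a, a stress-induced phosphatase subunit gene, and Dusp1, a MAP kinase phosphatase gene. Their centred log2 values differed from those of Cd69 by 0.067 and 0.087 on average. Ppp1r15a had 225, 108 and 119 FPKM in G9gl and 98.4, 91.6 and 62.5 FPKM in WT. Both are on a list of immediate-early and dissociation stress genes, of which 16 were tested. Of these 16, 5 rose, 2 fell and 9 did not pass, with a median log2 fold change of 0.41. Their 2 most abundant members, the chaperone genes Hspa8 and Hspa5, had 1627 ± 42.1 and 551 ± 63.4 FPKM in G9gl and 1242 ± 145 and 419 ± 11.2 FPKM in WT. G9gl replicate 1 was the highest library for 11 of the 16 genes and WT replicate 3 the lowest for 10. Both held for 8 of the 16, and for 3.55% of all tested genes. The summed FPKM of the list ran from 4450 to 5500 in G9gl and from 3640 to 4050 in WT. The part of this in the values of Cd69 and Cd83 was not tested.

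**Figure D3:**
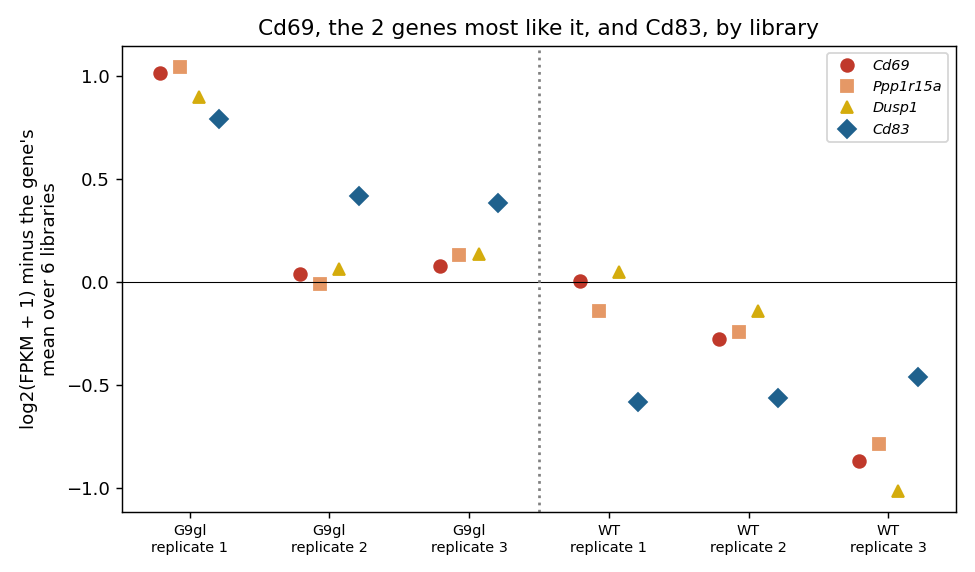
Values of log2(FPKM + 1) of Cd69, Ppp1r15a, Dusp1 and Cd83 in each library, each gene centred on its own mean over the 6 libraries. Cd69, Ppp1r15a and Dusp1 were highest in G9gl replicate 1 and lowest in WT replicate 3. Cd83 was also highest in G9gl replicate 1, at 813 FPKM, while its 3 WT libraries were alike, at 313 to 340 FPKM.

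Cd44 (chromosome 2, 102811141 to 102901665) encodes the hyaluronan receptor, which marks antigen-experienced lymphocytes. It had 11.8, 12.7 and 15.1 FPKM in G9gl, against 17.3, 17.3 and 16.7 FPKM in WT. All G9gl libraries were below all WT libraries, and the WT libraries were close together. The mean was 13.2 ± 1.73 FPKM in G9gl and 17.1 ± 0.362 FPKM in WT, a log2 fold change of -0.36 ± 0.097 (SE) with a limma adjusted p of 0.026. The call was lost in 6 of 15 other settings, all with a negative log2 fold change, and among them without G9gl replicate 1 (adjusted p 0.061), without G9gl replicate 2 (adjusted p 0.078) and without any 1 WT library (adjusted p 0.056 to 0.081). Genes of proteins that tie CD44 to the actin skeleton were also lower, and a link of these to the values of Cd44 was not tested. Ezr, the ezrin gene, fell to 244 ± 8.90 FPKM in G9gl, against 378 ± 18.0 FPKM in WT (limma adjusted p 6.8e-05). Msn and Rdx, the moesin and radixin genes, fell with log2 fold changes of -0.31 and -0.34.

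Slamf7 and Cd48 are members of the SLAM family and lie side by side on chromosome 1. Slamf7 (171632403 to 171653035, minus strand) encodes CRACC, which binds itself on neighbouring cells, and Cd48 (171682009 to 171705258, plus strand) encodes a lipid-anchored ligand of the receptors 2B4 and CD2. Their annotated ends are 28973 bases apart. Slamf7 had 15.7, 18.1 and 19.3 FPKM in G9gl and 17.3, 18.3 and 18.04 FPKM in WT. The groups overlapped, and its fold change was 0.988 with a 95% confidence interval of 0.860 to 1.13 (limma adjusted p 0.90). Cd48 had 258, 276 and 301 FPKM in G9gl, against 241, 229 and 251 FPKM in WT. All G9gl libraries were above all WT libraries, the nearest by a narrow margin. The mean was 278 ± 21.9 FPKM in G9gl and 240.4 ± 10.6 FPKM in WT (SD, n = 3 each), a log2 fold change of 0.21 ± 0.066 (SE) with a limma adjusted p of 0.047. This call was lost in 8 of 15 other settings, among them after quantile normalization (adjusted p 0.16) and in TPM (adjusted p 0.43). The rescaling to TPM lowered the median log2 fold change of all tested genes to -0.123, and the values of Cd48 were lowered with it. The Cd48 call was also lost without G9gl replicate 2 (adjusted p 0.11) or 3 (0.15) and without WT replicate 1 (0.094), 2 (0.15) or 3 (0.061).

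The promoter windows of these neighbours are shown because the genes share a locus and 1 of the 2 passed the test. That of Slamf7 is chr1:171648950-171649249 on the minus strand and that of Cd48 chr1:171681742-171682041 on the plus strand (RefSeq, GRCm38.p6, 250 bases before to 50 after the start that RefSeq gives). For Slamf7 that start lies inside the annotated span given above. Capitals mark the letters of the AP-1 motif TGANTCA or of the ETS motif CCGGAAG on either strand, which do not overlap here and were chosen with the windows in view.
Slamf7: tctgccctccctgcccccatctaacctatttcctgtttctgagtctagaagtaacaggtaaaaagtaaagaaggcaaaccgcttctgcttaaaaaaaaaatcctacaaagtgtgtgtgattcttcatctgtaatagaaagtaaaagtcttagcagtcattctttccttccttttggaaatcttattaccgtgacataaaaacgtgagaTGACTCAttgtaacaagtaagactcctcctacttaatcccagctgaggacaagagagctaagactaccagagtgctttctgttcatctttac
Cd48: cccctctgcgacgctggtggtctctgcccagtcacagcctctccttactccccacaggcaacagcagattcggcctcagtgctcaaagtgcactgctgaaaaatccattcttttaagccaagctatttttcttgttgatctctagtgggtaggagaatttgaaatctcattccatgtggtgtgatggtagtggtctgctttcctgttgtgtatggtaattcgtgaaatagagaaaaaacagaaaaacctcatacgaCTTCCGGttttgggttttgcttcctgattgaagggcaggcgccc
The Slamf7 window held 1 match to TGANTCA, which starts 42 bases before the gene start, and no match to CCGGAAG. The Cd48 window held 1 match to CCGGAAG, on the minus strand just after the gene start, and no match to TGANTCA. These letters occur in 7.81% (TGANTCA) and 8.86% (CCGGAAG) of all promoter windows of this length. Among the other windows found, that of Cd80 held TGANTCA, and those of Icosl, Cd274 and Cd44 held neither. The GC content was 39.0% for Slamf7 and 47.3% for Cd48, against a median of 52.7% over all windows. Of the 10 genes, 6 matched an entry in the promoter table.

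For each tested gene, the 2 other genes with the most similar values over the 6 libraries were sought, by the mean absolute difference of log2(FPKM + 1) after centring. Predicted genes, small RNA genes and genes with only a clone name were again left out. For Cd83 these were Snhg18, a long non-coding RNA gene (0.045), and Il4i1, an amino acid oxidase gene (0.061). Il4i1 had 381, 333 and 317 FPKM in G9gl and 163, 180 and 183 FPKM in WT. For Cd86 they were Gsk3a, a kinase gene, and Gclc, a glutathione synthesis gene. For Cd44 they were Klhl42 and Pxn, the gene of the adhesion adaptor paxillin. For Cd48 they were Thoc3 and Trnau1ap. For Icosl, Cd274, Cd40 and Slamf7, which varied little, the nearest genes were Dhx33 and Tmco3, Prdm15 and Acad9, Pot1a and Mau2, and Smcr8 and Ampd2. The size of the difference between the 2 genotypes enters this measure, so a gene with a like difference is drawn close.

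Other genes of the same systems were followed in 6 lists. Of 12 other members of the B7 and CD28 families, 5 were tested, of which 3 rose, 0 fell and 2 did not pass. Btla, an inhibitory receptor gene of the CD28 family, rose to 192 ± 12.03 FPKM in G9gl, against 141 ± 5.53 FPKM in WT (log2 fold change 0.44, limma adjusted p 8.9e-04). Tnfrsf14, which encodes the ligand of BTLA, rose to 4.55 ± 0.205 FPKM in G9gl, against 1.81 ± 0.585 FPKM in WT (adjusted p 0.0018). Btnl2, a butyrophilin-like gene, rose by 0.71 on the log2 scale. Of 16 ligands and receptors listed for the TNF superfamily, 8 were tested, of which 1 rose, 3 fell and 4 did not pass. All that passed encode receptors. Of the ligand genes only Tnfsf9 reached the filter and was tested, and it did not pass (limma adjusted p 0.54). The other ligand genes were too low to be compared with the receptors. The gene that rose was the death receptor gene Fas, with 15.1 ± 0.996 FPKM in G9gl and 6.53 ± 0.953 FPKM in WT. Those that fell were Tnfrsf13b, which encodes the receptor TACI, Tnfrsf13c, which encodes the BAFF receptor, and Tnfrsf1b, which encodes a receptor of TNF, with log2 fold changes of -0.78, -0.66 and -0.67.

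All 21 genes on the list of CD40 and NF-kB signalling were tested, and 6 rose, 4 fell and 11 did not pass. Traf1, an adaptor gene that NF-kB induces, rose to 38.0 ± 4.02 FPKM in G9gl, against 16.0 ± 0.157 FPKM in WT (limma adjusted p 2.1e-05). The genes of 3 proteins of the IkB family, Nfkbia, Nfkbie and Nfkbiz, rose with log2 fold changes of 0.43, 0.45 and 0.87, and so did Tnfaip3, the gene of the inhibitor A20, and Nfkb2. Those that fell were Traf3, Traf5, Map3k14 and Ikbkb, with log2 fold changes from -0.38 to -0.25. Traf3 and Map3k14 encode the brake and the kinase of the non-canonical pathway that CD40 engages. Cd40 itself did not pass, as given above.

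Of the other SLAM family genes and their adaptors, 9 were tested, and 1 rose, 3 fell and 5 did not pass. Slamf6, a receptor gene of B and T cells, rose to 74.7 ± 5.72 FPKM in G9gl, against 54.8 ± 3.02 FPKM in WT (limma adjusted p 0.0023). Fyn, a Src-family kinase gene that acts with SLAM adaptors, fell to 16.8 ± 2.67 FPKM in G9gl, against 28.1 ± 1.45 FPKM in WT. Slamf9 fell by 0.89 on the log2 scale, and Inpp5d, the phosphatase gene SHIP1, by 0.22.

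Among genes that act on the stability, partners or induction of these surface molecules, 12 were tested, of which 2 rose, 6 fell and 4 did not pass. Irf1, a factor of the interferon response that can induce Cd274, rose to 227 ± 7.85 FPKM in G9gl, against 134 ± 11.2 FPKM in WT (limma adjusted p 7.3e-05). Cd74, the invariant chain gene of MHC class II, rose by 0.29 on the log2 scale. Jak2, a cytokine receptor kinase gene, fell by 0.97 on the log2 scale. Cmtm6, whose product keeps PD-L1 at the cell surface, fell to 94.7 ± 0.765 FPKM in G9gl, against 137 ± 5.40 FPKM in WT. Cd274, as given above, did not pass.

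Of 22 tested genes of other activation surface markers, 5 rose, 6 fell and 11 did not pass, with a median log2 fold change of -0.06. Cd24a, which encodes the heat-stable antigen of immature B cells, fell to 108 ± 12.6 FPKM in G9gl, against 326 ± 20.6 FPKM in WT (limma adjusted p 3.9e-06). Cd38, an ectoenzyme gene of mature B cells, rose to 216 ± 5.68 FPKM in G9gl, against 154 ± 7.07 FPKM in WT. Cxcr5, the follicular homing receptor gene, fell by 0.50 on the log2 scale, and Tfrc, the transferrin receptor gene of growing cells, by 0.64.

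**Figure D4:**
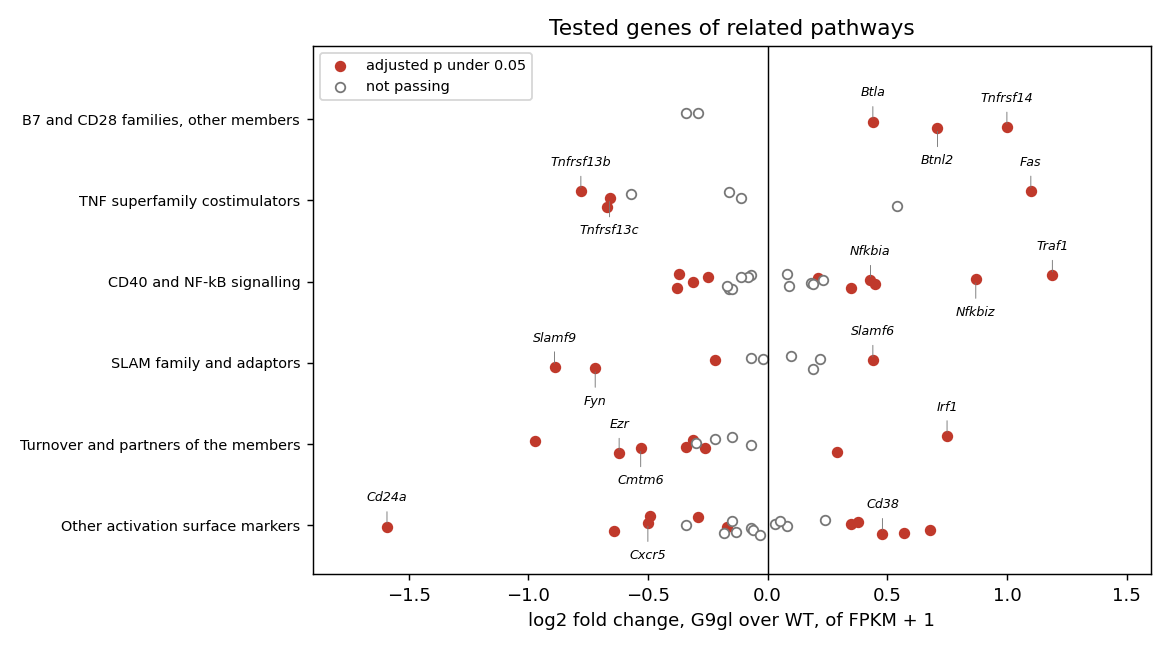
The log2 fold change, G9gl over WT, of each tested gene in the 6 lists of related genes, with filled points for an adjusted p under 0.05. The 3 genes with the smallest p of each list are named. Genes passed in both directions in all lists except the other members of the B7 and CD28 families, where 3 rose and 0 fell.

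Both genotypes expressed the genes of B cells, but not all at the same level. Of 12 B cell markers, all tested, 2 rose, 5 fell and 5 did not pass, with sums of 8130 to 8510 FPKM in G9gl and 8840 to 9130 FPKM in WT. Cd79b and Cd79a, the antigen receptor signalling genes, were the most abundant. Cd79b did not pass, with 2424.5 ± 32.1 FPKM in G9gl and 2473 ± 53.6 FPKM in WT (limma adjusted p 0.68), whereas Cd79a fell to 2213 ± 75.7 FPKM in G9gl, against 2497 ± 114 FPKM in WT (limma adjusted p 0.039). Cr2, the gene of CD21, which was used in the sort, fell to 61.2 ± 2.42 FPKM in G9gl, against 131 ± 7.20 FPKM in WT (limma adjusted p 5.2e-06). Fcer2a, the gene of CD23, also used in the sort, fell to 794 ± 31.2 FPKM in G9gl, against 946 ± 51.7 FPKM in WT (limma adjusted p 0.01). Ptprc, the gene of B220, and Cd93 did not pass (limma adjusted p 0.15 and 0.61). Ms4a1, the CD20 gene, fell by 0.42 on the log2 scale. Several of the genes described are also expressed by macrophages and dendritic cells, and in bulk libraries fewer cells of a type and less RNA per cell cannot be told apart. Of 18 macrophage and monocyte markers, 12 were tested, of which 10 rose and 0 fell. Their summed level ran from 85 to 114 FPKM in G9gl and from 34.4 to 43 FPKM in WT, with Ly6c2 and Lyz2 the most abundant. Of 11 dendritic cell markers, 3 were tested and 2 rose, with sums of 8.07 to 8.9 FPKM in G9gl and 2.82 to 4.67 FPKM in WT and with Cd209a and Zbtb46 the most abundant. Clec10a was listed at 0 in all 6 libraries. Of 14 T and NK cell markers, 5 were tested and 1 rose, with sums of 12.7 to 13.6 FPKM in G9gl and 6.59 to 11.9 FPKM in WT and with Lat and Nkg7 the most abundant. Of 12 plasma cell and germinal centre markers, 7 were tested, and 4 rose and 2 fell. The sums were 212 to 221 FPKM in G9gl and 199 to 215 FPKM in WT, with Xbp1 and Bcl6 the most abundant. Of 8 neutrophil and erythroid markers, 2 were tested and 1 rose, with sums of 14.6 to 35.1 FPKM in G9gl and 2.9 to 8.44 FPKM in WT and with S100a8 and S100a9 the most abundant. The part of other cell types in the levels of Cd83, Cd86, Cd44 and Cd48 was not tested.

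**Figure D5:**
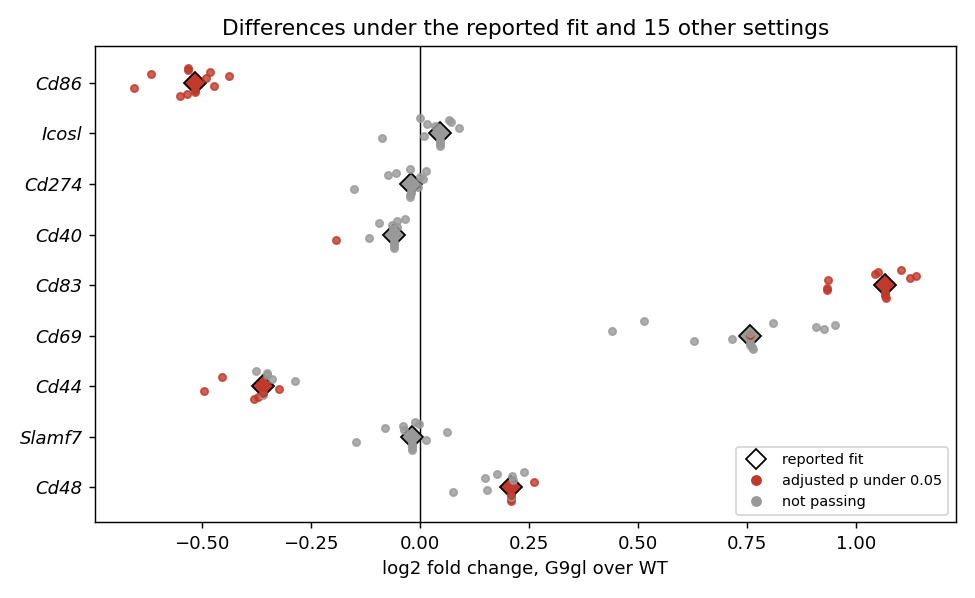
The log2 fold change of the 9 tested genes, G9gl over WT, in the reported fit (diamonds) and in 15 other settings (circles), in red where the adjusted p was under 0.05. Cd83 and Cd86 passed in all 15 other settings, Cd44 in 9 and Cd48 in 7, and the values of Icosl, Cd274 and Slamf7 lay on both sides of 0.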

How the data were processed

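The authors deposited 1 FPKM value per gene symbol and library, a unit read from the tools and the values. The submitters' processing notes name Cufflinks 2.2.1, TopHat2 2.0.13, SAMtools 0.1.19 and Bowtie2 2.2.3, with mm10. Their annotation, filters and scaling are not stated. Per the labels' protocols, Trizol RNA was made into full-length cDNA with a SMART-Seq HT kit and into libraries with a Nextera kit, which keeps no strand. FPKM does not show depth, which was estimated at 9400000 to 10940000 fragments per library, or 18.8 to 21.9 fragments per FPKM in 2 kb. The estimate used the step that 1 fragment gives in genes with 1 annotated transcript of at least 1500 bases. Of the low values of these genes, 73.3 to 81.6% lay within 0.15 of a whole fragment, against 30% by chance. The depth was chosen to bring these values close to whole fragments, so this share is not a separate check of it. FPKM totals were 657759 to 671533 in G9gl and 603054 to 611557 in WT. No pair of libraries shared identical values above 0 in more than 2 genes. Immunoglobulin genes were not analysed here, so the knock-in itself was not checked.

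Genes reaching 1 FPKM in 3 or more of the 6 libraries were tested with limma 3.58.1 in R 4.3.3 (trended eBayes) on log2(FPKM + 1). The model held genotype alone, and p-values were adjusted over all tested genes (Benjamini-Hochberg). Fold changes on this scale understate those of low genes. The genes and lists were chosen with earlier results of these data known, and no test was made over a list. Named were all 10 genes, from the 6 lists of related genes the 3 with the smallest p, from marker and stress lists the 2 most abundant, and the 2 genes most like each tested gene. Other genes of these lists, such as March1, Msn, Rdx, Cd74, Jak2, S1pr1, Inpp5d, Tfrc, Tnfrsf1b, Cr2, Ms4a1, Clec10a and those named of NF-kB signalling beside the first 3, were chosen after their values were seen. A gene first placed on 1 of these lists is not reported here. Positions are from GENCODE M21 (GRCm38, the assembly of mm10), 1-based.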

Additional observations from a re-analysis of the deposited data

How the results depend on the processing

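The settings tried were pseudocounts of 0.1 and 0.5, no filter, a filter of at least 5 FPKM, TPM, quantile normalization, median-ratio scaling, robust eBayes, a block on the replicate number, and each library left out in turn. Cd83 and Cd86 passed in all 15. In the reported fit, 4 of the 9 tested genes were called, 2 in each direction, against 2365 of 10122 over all tested genes. Without a filter on low values 2 were called, 1 higher and 1 lower, as Cd44 and Cd48 no longer passed. Over all genes, 1753 of 19079 were called in that setting. With TPM or quantile normalization 1 was higher, as Cd48 no longer passed, and in TPM 3 were lower, with Cd40 added. Over all genes, 3258 of 10568 were called in TPM and 2172 of 10122 after quantile normalization. Without 1 library each, 2 to 3 were called, 1 to 2 higher and 1 to 2 lower. Over all tested genes, 1191 were higher and 1174 lower. In TPM 763 were higher and 2495 lower, 23.4% higher against 50.4% in the reported fit. Without 1 library each, 1518 to 2251 were called, 793 to 1076 higher and 689 to 1175 lower, with the fewest in all and the fewest lower without WT replicate 2 and the fewest higher without G9gl replicate 2. The shared replicate numbers gave no sign of pairing. The deviations of same-numbered libraries from their group means correlated at 0.1, -0.07 and 0.02 over genes, and G9gl replicate 2 correlated best with WT replicate 3, at 0.16. Deviations from a mean of only 3 libraries depend on each other, so these values cannot exclude a pairing. With the replicate block, 2032 genes were called, and Cd69 passed with an adjusted p of 0.0062, while Cd83, Cd86, Cd44 and Cd48 passed as in the reported fit. Depth limits what can be said of Cd80, which without the filter had a log2 fold change of 0.11 ± 0.14 (SE, limma adjusted p 0.68).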
